A study of Homo sapiens with 10 samples.

Results

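The BTG and TOB genes encode the antiproliferative proteins, a small family named after B-cell translocation gene and transducer of ERBB2. BTG1, BTG2, BTG3, TOB1 and TOB2 were taken by name from the 20327 genes of the deposited tables, and all 5 were found through their Ensembl identifiers. Polyadenylated RNA was sequenced, and the cells were hTERT RPE-1, a telomerase-immortalised line derived from human retinal pigment epithelium. All cells were held in 0.1% fetal bovine serum for 48 h, and merbarone, a catalytic inhibitor of DNA topoisomerase II, was used at 200 µM. In the first of 2 experiments, 3 libraries from cells given merbarone for 30 min were set against 3 from cells given its vehicle DMSO for 30 min. In the second, 2 libraries from cells given merbarone for 2 h were set against 2 from untreated cells, which received no vehicle. One cell line was used, and the labels do not say whether replicates were separate cultures, so p-values measure only the spread between these libraries, which may be technical.

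The family shares an N-terminal BTG domain, through which its members bind the CAF1 deadenylases CNOT7 and CNOT8 of the CCR4-NOT complex and promote removal of poly(A) tails from messenger RNA. TOB1 and TOB2 also carry motifs that bind the cytoplasmic poly(A)-binding protein PABPC1. The proteins are known for slowing entry into S phase, and BTG2 is a textbook early response gene. BTG1 is abundant in quiescent cells, BTG3 can bind E2F1, and BTG4, a further member, acts in the oocyte.

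Values are RPKM, reads per kilobase of gene scaled to the reads of the library. For most genes the length used was the whole gene span with introns, so RPKM compares a gene between libraries but places long genes low beside short ones. Levels of different genes were therefore also given per kilobase of annotated exon, from the same reads, which may include intron reads. The length behind the RPKM of BTG1 was 3388 bp, against 4855 bp of exon, so its exon level is below its RPKM. For BTG3 these lengths were 19295 and 2304 bp. The order and shares of the members therefore depend on the length used. Library totals implied by the values were 26644379 to 38240706 reads in the 30 min experiment and 11962092 to 13696974 in the 2 h experiment. Of the retinal pigment epithelium markers, 3 of 10 reached 1 RPKM in every group (BEST1, PMEL and OTX2), while RPE65, TYR, TTR, RLBP1 and TYRP1 were near 0. The summed level of that list was 8.98 to 11.8 RPKM in the 30 min experiment and 25.5 to 29.3 RPKM in the 2 h experiment. Of 5 markers of simple epithelium, KRT8 and KRT18 were expressed, while KRT19, CDH1 and EPCAM were at most 0.019, 0.0023 and 0.0012 RPKM. The list sums were 16.1 to 24.5 RPKM in the first experiment and 62.0 to 76.0 RPKM in the second. Of the mesenchymal markers, 4 of 6 reached 1 RPKM, with list sums of 621 to 1172 RPKM over all libraries. Most of each sum was VIM, at 560 to 1105 RPKM, while COL1A2 and COL3A1 were at most 0.0068 and 0.027 RPKM. All 4 proliferation markers reached 1 RPKM, with sums of 43.9 to 60.2 RPKM. The markers of blood, endothelium (2 of 3 in the tables used here) and neurons were below 1 RPKM in every group, with CD3E and CDH5 at 0 in all of them and EPCAM at 0 in the 2 h experiment.

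BTG2 (ENSG00000159388) spans chr1:203274619-203278730 on the plus strand of GRCh37, and no annotated gene overlaps it. BTG1 (ENSG00000133639) lies on the minus strand at chr12:92534054-92539622 and overlaps LINC01619, which is on the same strand, and BTG1-DT. TOB2 (ENSG00000183864) lies on the minus strand at chr22:41829498-41842805 and overlaps no other gene. BTG3 (ENSG00000154640, minus strand, chr21:18965971-18985263) overlaps BTG3-AS1, and TOB1 (ENSG00000141232, minus strand, chr17:48939584-48945339) overlaps TOB1-AS1. The use of strand in the counting is not given in the sources used here, so reads of TOB1, BTG3 and BTG1 may include reads of these neighbours. LINC01619 itself held 12 to 66 reads per library, against 1503 to 5274 for BTG1.

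The 250 bases before the start of transcription are shown for the genes whose 2 h values moved furthest: BTG2 and TOB2, which passed the test in opposite directions, and BTG1, which did not pass. They come from RefSeq (GRCh38.p14) and each matched the GRCh37 genome exactly once, for BTG2 at chr1:203274397-203274646, for BTG1 at chr12:92539623-92539872 and for TOB2 at chr22:41842806-41843055. They are written 5′ to 3′ on the gene's strand, and capitals mark matches to the motifs named in the next paragraph other than the GC box.
BTG2: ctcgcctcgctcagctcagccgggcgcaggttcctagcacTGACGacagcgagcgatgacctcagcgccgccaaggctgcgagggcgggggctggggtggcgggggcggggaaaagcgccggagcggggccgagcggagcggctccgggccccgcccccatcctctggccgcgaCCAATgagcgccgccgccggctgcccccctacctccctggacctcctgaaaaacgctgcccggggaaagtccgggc
BTG1: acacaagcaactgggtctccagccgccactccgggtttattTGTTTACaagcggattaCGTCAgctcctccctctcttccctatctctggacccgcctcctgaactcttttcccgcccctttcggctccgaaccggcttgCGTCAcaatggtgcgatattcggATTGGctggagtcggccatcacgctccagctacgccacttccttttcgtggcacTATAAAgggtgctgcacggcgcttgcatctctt
TOB2: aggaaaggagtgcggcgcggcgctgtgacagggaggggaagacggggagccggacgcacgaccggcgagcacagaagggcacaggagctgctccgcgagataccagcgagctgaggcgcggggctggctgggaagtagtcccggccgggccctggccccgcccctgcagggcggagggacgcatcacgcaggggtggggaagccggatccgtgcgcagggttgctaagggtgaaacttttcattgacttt

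The BTG2 window was 74.8% G or C, the TOB2 window 68.4% and the BTG1 window 56.4%. The RefSeq start of BTG2 lies 28 bases downstream of the start in the GRCh37 annotation. RefSeq gave 1 window for each member except TOB1, which had 2: one at the start of the GRCh37 annotation, with 38.4% G or C and no motif match, and one whose start lies 1624 bases downstream, which holds all TOB1 matches given here. Both strands were searched. The core of the cAMP response element, TGACG, occurred in the BTG2 window from base -210 to base -206, counted back from the start, at 2 places in BTG1, and in TOB1. It occurred in 21.2% of 35116 RefSeq windows of this length. The CCAAT box, by the letters CCAAT, occurred in the same 3 genes and in 32% of windows. In BTG2 it ran from base -76 to base -72. BTG1 was the only member with the TATA box TATAAA (10.7% of windows), from base -33 to base -28. It was also the only member with the FOXO site TGTTTAC (2.98% of windows), from base -209 to base -203. The GC box GGGCGG had matches in all of the members' windows except the TOB1 window at the annotated start, with 3 in BTG2 and 2 in TOB2. It occurred in 42.6% of windows. No member's window held the full cAMP response element TGACGTCA, which contains that core and occurred in 1.65% of windows. Nor did any hold the AP-1 site TGANTCA (6.57% of windows), the amino acid response element TGATGNAA (3.14%) or the E-box CACGTG (6.34%). The CArG box (1.16% of windows) had no match in these windows either. These matches describe letters in the window and do not show binding.

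**Figure D1:**
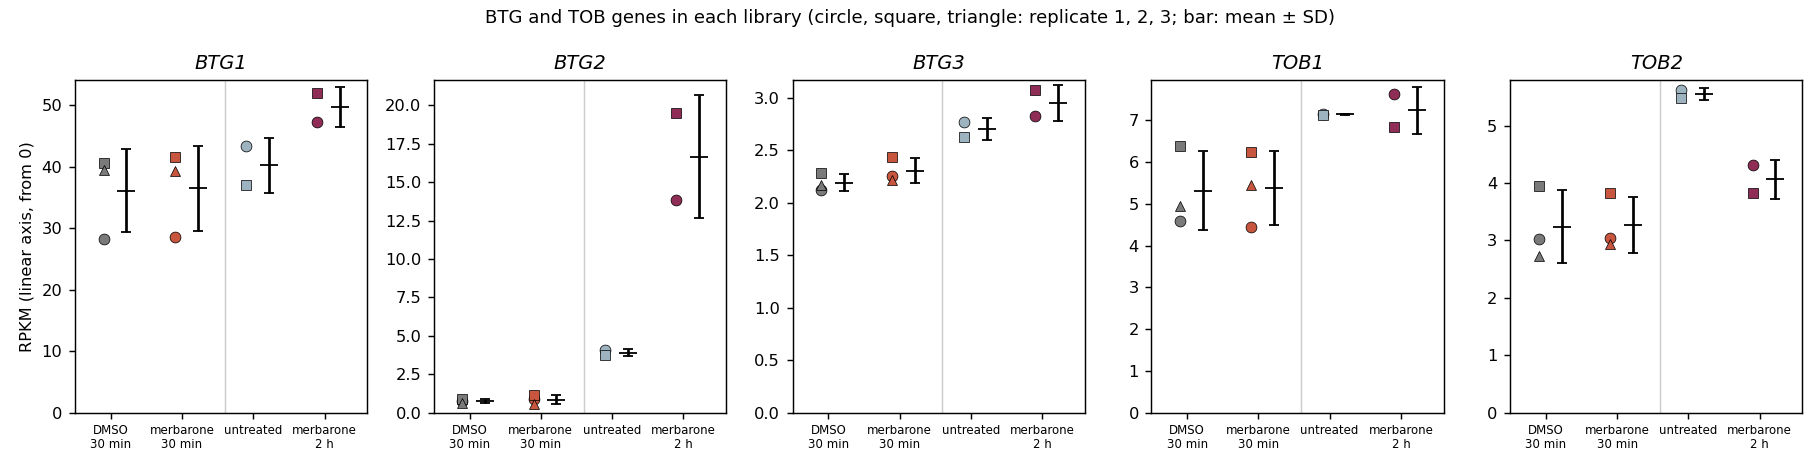
RPKM of each of the 5 genes in every library, by group, with circles, squares and triangles for replicates 1, 2 and 3 and bars for the group mean ± SD; each gene has its own vertical scale. The 2 BTG2 libraries at 2 h of merbarone (13.8 and 19.5 RPKM) stand above all others, and the 2 TOB2 libraries at 2 h (4.31 and 3.82 RPKM) lie below both untreated libraries.

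The comparison of merbarone at 2 h with untreated cells asked how RNA levels stood after the longer exposure to the topoisomerase II inhibitor. Its control received no vehicle, so the drug and its vehicle cannot be told apart at 2 h. Of the 5 members, BTG2 rose, TOB2 fell, and BTG1, BTG3 and TOB1 did not pass the test. Calls used limma on log2(RPKM + 1) with a Benjamini-Hochberg adjusted p under 0.05, among the 6620 genes that averaged 1 RPKM or more. By this rule 13.1% of all genes tested were called, 5.98% as higher and 7.1% as lower. Other settings named here called 0.315% of genes (no filter on low values), 14% (limma's voom method on reads recovered from the values) and 32.2% (the replicate number as a block). In bulk samples a change in the RNA per cell cannot be told apart from a change in how many cells of a type are present.

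BTG2, which recruits deadenylases and slows the cell cycle, was at 4.05 and 3.72 RPKM in the untreated libraries and at 13.8 and 19.5 RPKM in the merbarone libraries. Both treated libraries lay far above both controls, and 61.5% of the genes tested had groups that did not overlap, in either direction. The 2 treated libraries differed more from each other than the 2 controls did. The group means were 3.89 ± 0.233 RPKM (SD, n = 2) and 16.6 ± 4.01 RPKM (SD, n = 2), a ratio of 4.28. These values rest on 183 to 222 reads per untreated library and 778 to 1045 reads per merbarone library. The log2 fold change of RPKM + 1 was 1.83 ± 0.14 (SE, 95% interval 1.51 to 2.16), with a limma adjusted p of 8.34e-05. It was the 17th highest log2 fold change of the 396 genes called higher, whose median was 0.48. Without the filter on low values, BTG2 had the same fold change with an SE of 0.18 and a limma adjusted p of 0.0806.

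TOB2, an adaptor that links the deadenylases to PABPC1, was at 5.62 and 5.47 RPKM in untreated cells and at 4.31 and 3.82 RPKM after 2 h of merbarone. Both treated libraries were below both controls, and 61.5% of the genes tested had groups that did not overlap, in either direction. The means were 5.54 ± 0.101 RPKM and 4.06 ± 0.344 RPKM (SD, n = 2 each), a ratio of 0.733. TOB2 fell by 0.37 on the log2(RPKM + 1) scale, with an SE of 0.09, a 95% interval of -0.57 to -0.17 and a limma adjusted p of 0.0286. The fall was of ordinary size among called genes, ranked 322 of the 470 genes called lower. The call was lost with quantile normalization (-0.33, limma adjusted p = 0.0529), with all 10 libraries in 1 fit (-0.37, 0.119) and with no filter (-0.37, 0.121). It was also lost without the first (-0.44) or second (-0.30) merbarone library. Those fits leave 1 merbarone library, and limma took their spread from all genes together, so they do not measure the spread of TOB2 itself.

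BTG1, the most abundant member, was at 43.4 and 37.1 RPKM in untreated cells and at 47.3 and 52.0 RPKM at 2 h. The merbarone libraries lay above both controls, where 61.5% of the genes tested had groups that did not overlap, in either direction. The untreated libraries differed from each other by more than the gap between the nearest libraries of the 2 groups. The means were 40.2 ± 4.45 and 49.6 ± 3.26 RPKM (SD, n = 2 each), a ratio of 1.23. The log2 fold change was 0.30 ± 0.12 (SE, 95% interval 0.03 to 0.57), with a limma adjusted p of 0.131. Without the first untreated library the log2 fold change was 0.41, and without the second it was 0.19. Without the first or second merbarone library it was 0.37 or 0.23. Each of these fits leaves 1 library in a group, so only the log2 fold changes are given.

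BTG3, at 2.77 and 2.63 RPKM untreated and 2.83 and 3.07 RPKM at 2 h, had a log2 fold change of 0.09 ± 0.08 (SE, 95% interval -0.09 to 0.28, limma adjusted p = 0.448). Its treated libraries were above both controls, which was also a common pattern: 61.5% of the genes tested had groups of 2 that did not overlap, in either direction. TOB1, the paralogue of TOB2, was at 7.16 and 7.13 RPKM untreated and at 7.64 and 6.85 RPKM at 2 h. Its groups overlapped, and the log2 fold change was 0.02 ± 0.09 (SE, 95% interval -0.20 to 0.23, limma adjusted p = 0.928). Both intervals include 0; that of BTG3 does not include a fall as large as that of TOB2, nor does that of TOB1.

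The comparison of merbarone with DMSO at 30 min asked how RNA levels stood early after the drug was added, against a vehicle control. No member was called higher or lower by limma. Of all 6500 genes tested 0.0154% were called, which was 1 gene, and 0.123% with the replicate block. Of the same genes 2.28% had groups of 3 that did not overlap. At an unadjusted p under 0.05 there were 0 of 4 members tested and 24 of all 6500 genes. Voom on the recovered reads, which called 0.00714% of its genes, called 0 of 5. BTG2 was below the filter of a mean of 1 RPKM in this experiment.

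BTG2 was at 0.758, 0.879 and 0.642 RPKM with DMSO and at 0.860, 1.15 and 0.541 RPKM with merbarone, in the order of the replicate numbers. The groups overlapped, with the second library highest and the third lowest under both treatments. The means were 0.760 ± 0.119 and 0.850 ± 0.304 RPKM (SD, n = 3 each), from 78 to 177 reads per library. Fitted without the filter, the log2 fold change was 0.06 ± 0.13 (SE, 95% interval -0.28 to 0.40).

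BTG1 was at 28.3, 40.5 and 39.5 RPKM with DMSO and at 28.6, 41.5 and 39.4 RPKM with merbarone. The first library of each group was low, and the groups overlapped almost entirely, with a log2 fold change of 0.01 ± 0.19 (SE, 95% interval -0.44 to 0.47). TOB2 was at 3.03, 3.95 and 2.73 RPKM with DMSO and at 3.05, 3.82 and 2.93 RPKM with merbarone. Its second library was the highest in both groups, and its log2 fold change was 0.02 ± 0.13 (SE, 95% interval -0.29 to 0.32).

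TOB1 was at 4.60, 6.38 and 4.95 RPKM with DMSO and at 4.45, 6.23 and 5.45 RPKM with merbarone, again highest in the second libraries. Its log2 fold change was 0.02 ± 0.14 (SE, 95% interval -0.33 to 0.36). BTG3 was the least variable member, at 2.12, 2.29 and 2.16 RPKM with DMSO and 2.26, 2.44 and 2.22 RPKM with merbarone. Its groups overlapped, with a log2 fold change of 0.05 ± 0.05 (SE, 95% interval -0.07 to 0.17). With the replicate number as a block, which pairs the libraries of this experiment, the log2 fold changes were the same and the intervals of BTG1 (-0.08 to 0.11), TOB1 (-0.092 to 0.125), TOB2 (-0.075 to 0.105) and BTG3 (-0.02 to 0.12) were narrower.

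**Figure D2:**
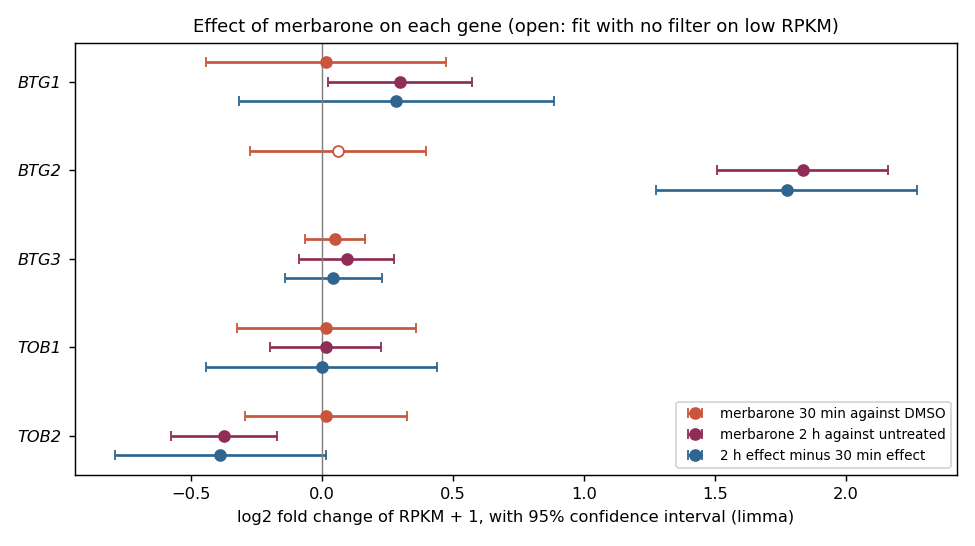
Log2 fold change of RPKM + 1 with its 95% interval for each gene at 30 min (against DMSO), at 2 h (against untreated) and for the 2 h effect minus the 30 min effect. BTG2 at 2 h (1.83) and its difference (1.77) stand apart from the other values, which lie between -0.39 and 0.30; the open point, BTG2 at 30 min (0.06), comes from the fit without the filter on low values.

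Whether the merbarone effect differed between the experiments was tested as a contrast over all 10 libraries, in which exposure time, kind of control and experiment cannot be told apart. Of 6558 genes, 1.63% were called, 1.27% in the higher direction and 0.366% in the lower. BTG2 was the only member called: its 2 h effect exceeded its 30 min effect by 1.77 ± 0.22 (SE, log2, 95% interval 1.28 to 2.27, limma adjusted p = 0.00421). It ranked 11 among the 83 genes called in that direction. BTG2 averaged under 1 RPKM in the 30 min experiment and passed the filter of this fit only through the 2 h libraries. At such low levels log2(RPKM + 1) compresses a change, so the 2 effects of BTG2 were measured on unlike footings. The voom method without the replicate block, which called 0.475% of its genes, gave 1.95 with an adjusted p of 0.0924.

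For TOB2 the 2 effects differed by -0.39 ± 0.18 (SE, log2, 95% interval -0.79 to 0.02, limma adjusted p = 0.326). With the block, under which 19.1% of genes were called, TOB2 had the same difference with an adjusted p of 0.0112. For BTG1 the difference was 0.28 ± 0.27 (adjusted p = 0.663), for BTG3 0.04 ± 0.08 (0.844) and for TOB1 -0.00077 ± 0.20 (0.999), with SE after each value. The intervals were -0.31 to 0.88 for BTG1 and -0.44 to 0.44 for TOB1 without the block, and 0.03 to 0.54 and -0.19 to 0.18 with it; BTG1 then had an adjusted p of 0.106.

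The control groups themselves differed most for BTG2. Untreated cells of the 2 h experiment held 5.11 times the mean BTG2 RPKM of the DMSO cells of the 30 min experiment. On the log2(RPKM + 1) scale this was 1.47, and 0.732% of 6558 genes had a control difference as large or larger in either direction. For TOB2 the ratio was 1.71, with 6.92% of genes as far apart, and for TOB1 it was 1.35. BTG3 and BTG1 had ratios of 1.23 and 1.11. The epithelial and retinal marker sums given above also differed between the experiments. Most of this came from KRT18 (14.1 to 69.4 RPKM over the 10 libraries) and BEST1 (2.10 to 20.0 RPKM). The retinal markers PMEL and OTX2 ranged only from 3.68 to 5.07 and from 2.35 to 4.61 RPKM. The part of these markers in the control differences was not tested.

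Per kilobase of exon, the order of the levels in DMSO cells was BTG1 (25.2 ± 4.74), BTG3 (18.4 ± 0.707), TOB1 (12.1 ± 2.15), TOB2 (10.1 ± 1.99) and BTG2 (1.13 ± 0.177; SD, n = 3, reads per kilobase of exon, scaled to depth). TOB1 and TOB2 stood apart by about the SD of TOB1. The 30 min merbarone cells had the same order: BTG1 (25.5 ± 4.82), BTG3 (19.3 ± 0.992), TOB1 (12.3 ± 2.04), TOB2 (10.2 ± 1.51) and BTG2 (1.27 ± 0.453; SD, n = 3). In untreated cells BTG1 (28.1 ± 3.11) and BTG3 (22.6 ± 0.869) again came first, TOB2 (17.3 ± 0.315) stood just above TOB1 (16.3 ± 0.0399), and BTG2 was last at 5.80 ± 0.348 (SD, n = 2 each). After 2 h of merbarone BTG2 reached 24.8 ± 5.98, next to BTG3 at 24.7 ± 1.43, a pair closer than their spread. BTG1 stood above them at 34.6 ± 2.28, and TOB1 (16.5 ± 1.27) and TOB2 (12.7 ± 1.07) below. On the RPKM scale BTG3, whose gene is the longest at 19295 bp, was instead the lowest member, both in untreated cells and after 2 h of merbarone.

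Within the 2 h experiment, BTG2 thus went from the smallest part of the family's sum by exon length to a sizeable part. Per kilobase of exon it made up 1.44 to 1.93% of the 5 genes' sum in DMSO libraries and 1.18 to 2.22% in the 30 min merbarone libraries. It made up 6.40 to 6.47% in untreated libraries and 19.0 to 24.5% after 2 h of merbarone. TOB2 made up 18.7 to 19.7% in untreated libraries and 10.04 to 12.4% after 2 h. On the RPKM scale, where BTG1 dominates, the BTG2 share was 6.43 to 6.64% untreated and 18.2 to 22.9% at 2 h. BTG4, the oocyte member, had 0 to 2 reads in each library and was not counted in these sums.

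**Figure D3:**
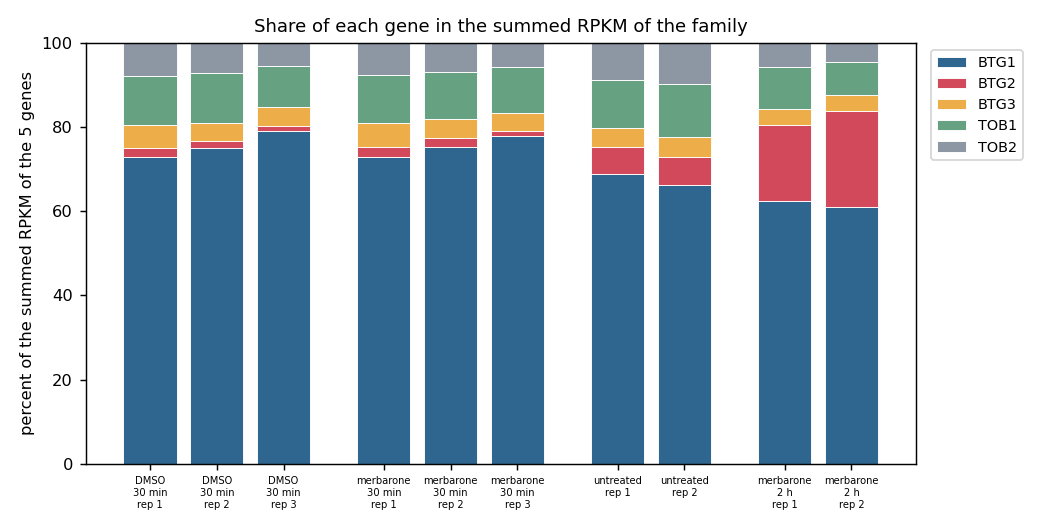
Share of each gene in the summed RPKM of the 5 genes, in percent, with 1 stacked bar per library. BTG1 is the largest part in all 10 libraries, and the BTG2 part is 18.2 and 22.9% in the 2 merbarone libraries at 2 h against at most 6.64% elsewhere.

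The first list held genes of 18 deadenylase subunits and poly(A)-binding proteins, through which the family acts on messenger RNA. Of these, 11 averaged 1 RPKM or more at 2 h, and 0 passed the limma test in either direction, against 13.1% of all genes, with a median log2 fold change of -0.0011 against -0.05 for all genes. At an unadjusted p under 0.05 there was 1 gene, CNOT1, and 2070 of all 6620 genes. CNOT1 passed with the replicate block (log2 fold change 0.18, limma adjusted p = 0.0332), which called 32.2% of all genes. Voom called 0 of 18, against 14% of all its genes. With the block at 2 h limma took the spread from all genes together, so that p-value does not measure the spread of CNOT1 itself. CNOT7, the CAF1 deadenylase bound by the BTG domain, was at 3.70 ± 0.937 RPKM untreated and 3.66 ± 0.224 at 2 h (SD, n = 2 each). Its paralogue CNOT8 was at 3.31 ± 0.317 and 3.39 ± 0.103 RPKM, and PABPC1, the partner of TOB proteins, at 19.0 ± 0.114 and 17.0 ± 0.134 RPKM. The log2 fold changes were -0.0011 for CNOT7, 0.03 for CNOT8 and -0.15 for PABPC1, and none passed.

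The second list held 11 other binding partners and substrates, among them the methyltransferase PRMT1, the SMAD signalling proteins and the RNA helicase UPF1. At 2 h 7 were tested and 0 passed the limma test, against 13.1% of all genes. The median was 0.05, and 2 genes had an unadjusted p under 0.05, as did 2070 of all 6620 genes. Voom called 2 of 11, against 14% of all its genes. The largest rises among those tested were 0.27 ± 0.09 (SE) for SMAD5, with a limma adjusted p of 0.0908, and 0.22 ± 0.08 for UPF1, with an adjusted p of 0.120. SKP2, also on this list, was below the filter on low values. It was at 0.995 ± 0.152 RPKM untreated and lower, at 0.466 ± 0.0488 RPKM, at 2 h (SD, n = 2 each). Of 14 genes of the G1 phase and the retinoblastoma pathway, 7 were tested and 0 passed, against the same 13.1%. Their median was -0.05, 1 had an unadjusted p under 0.05, and voom called 1 of 14, against 14% of all its genes. The gene with the unadjusted p under 0.05 was CDK4, with a log2 fold change of -0.30 ± 0.10 (SE, limma adjusted p = 0.0907). CCND1, the cyclin D1 gene whose expression BTG2 is known to restrain, was at 91.6 ± 6.31 RPKM untreated and 78.9 ± 2.86 RPKM at 2 h (SD, n = 2 each). Its log2 fold change was -0.21 ± 0.11 (SE, limma adjusted p = 0.238).

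The list of the stress-response genes CDKN1A and MDM2 and of 3 FOXO transcription factors is plotted as regulators, which is only its label. It held the only genes of the 4 lists called at 2 h by limma on log2(RPKM + 1) without the block. FOXO4, the only FOXO gene tested, was not called (log2 fold change -0.03, limma adjusted p = 0.842). Of 5 genes 3 were tested, 2 rose and 0 fell, against 5.98% of all genes called higher and 7.1% called lower. The median log2 fold change was 0.37. CDKN1A, the p21 inhibitor of cyclin-dependent kinases, went from 36.2 ± 1.69 to 106 ± 23.5 RPKM (SD, n = 2 each). Its log2 fold change was 1.50 ± 0.15 (SE, limma adjusted p = 0.000385). MDM2, an E3 ubiquitin ligase, went from 2.43 ± 0.470 to 3.41 ± 0.162 RPKM, a log2 fold change of 0.37 ± 0.10 (SE, limma adjusted p = 0.0468).

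At 30 min none of the 4 lists held a gene that passed the limma test, and none had a gene with an unadjusted p under 0.05 or a voom call. CDKN1A was at 24.2 ± 1.97 RPKM with DMSO and 26.3 ± 3.36 RPKM with merbarone (SD, n = 3 each), and CCND1 at 135 ± 20.4 and 129 ± 16.5 RPKM. In the contrast between experiments CDKN1A was the only listed gene called, with a difference of 1.40 ± 0.21 (SE, log2, limma adjusted p = 0.0112). The CCND1 difference was -0.15 ± 0.20 (adjusted p = 0.776).

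**Figure D4:**
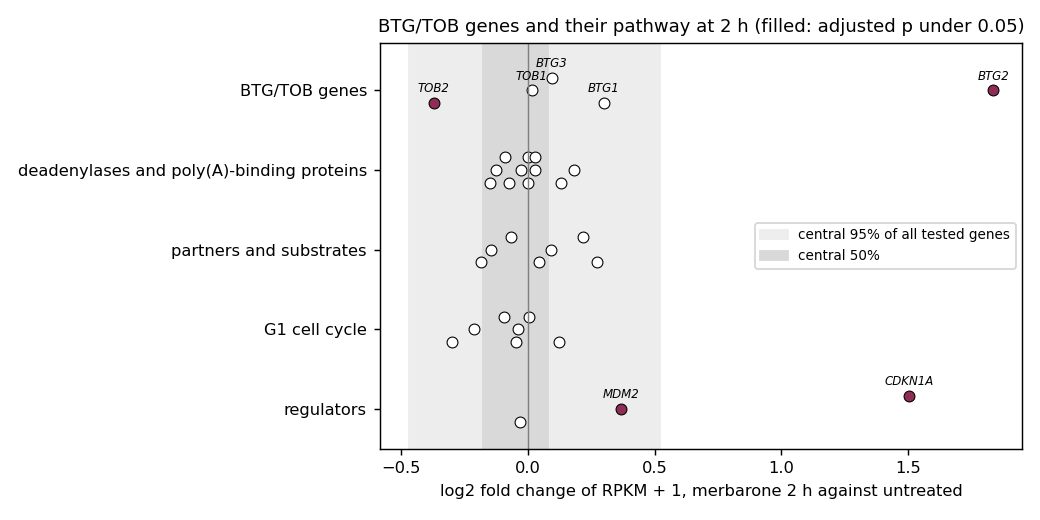
Log2 fold change of RPKM + 1 at 2 h for the 5 genes and for the tested genes of the 4 lists, 1 point per gene, filled where the adjusted p was under 0.05; the shaded bands hold the central 95% and 50% of all genes tested. BTG2 (1.83) and CDKN1A (1.50) lie far outside the bands, TOB2 (-0.37) and MDM2 (0.37) inside the wider one.

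The genes whose values moved most like each member were found over the 10 libraries, as Pearson's r of log2(RPKM + 1) after subtracting the control mean of the same experiment, among 6558 genes. The libraries share batches and depth, so these values are descriptions. Pearson's r ignores the size of a change, and for BTG2 it rests mainly on the 2 merbarone libraries at 2 h. The genes most like BTG2 were ZNF623 (r = 0.995, with a 2 h log2 fold change of 0.42), CDKN1A (0.995) and KANSL2 (0.993). For TOB2 they were SAPCD1 (0.992), GBA2 (0.964) and MSL1 (0.960). BTG1 was most like VPS11 (0.976), TGIF1 (0.965) and SMARCC2 (0.963). TOB1 was most like GLI4 (0.979), CRTC2 (0.968) and SIN3B (0.959), and BTG3 most like SLC35B3 (0.953), NR2C2 (0.910) and FAM200C (0.900).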

How the data were processed

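The authors deposited 1 table of RPKM values per library, per the file headers, with no log transformation and no pooling. The submitters' processing notes name Bowtie 1.2.0, edgeR, DESeq2, deepTools 2.4.1 and hg19, without their roles. Of 20327 identifiers, 19637 were given symbols. Whole reads were recovered from the steps in the values for 17680 of 17680 genes with any value above 0 (100%), which gave the depths and the lengths used: within 1% of the gene span for 75.2% of genes and of exon length for 1.6%. BTG1 had 3388 bp against a span of 5569 bp. Reads were divided by annotated exon length for the levels per kilobase of exon.

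Tests used limma 3.58.1 (R 4.3.3; eBayes with trend, two-sided) on log2(RPKM + 1), each experiment alone, for genes averaging 1 RPKM or more. Log2 fold changes on that scale understate the change of low genes. Voom on recovered reads used genes averaging 10 reads or more. Python 3.11.15, NumPy 2.4.6, pandas 2.3.3 and matplotlib 3.10.9 were used for tables and plots. Replicates held no identical values. Deviations of same-numbered libraries correlated at 0.925, 0.646 and 0.605 at 30 min, so the numbers, taken from the labels, pair the libraries there; the block changed no member's call at 30 min.

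The members, the lists and the alternatives were chosen with earlier results of these data known. The text names every member, BTG4 by level only, CCND1 and CDKN1A, the genes of each list past the threshold (at most 4), and the 3 genes most like each member. CNOT7, CNOT8, PABPC1, SMAD5, CNOT1, UPF1, SKP2, CDK4 and LINC01619 were added after their values were seen. One gene of the lists and 1 motif are not reported here.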

Additional observations from a re-analysis of the deposited data

Results flagged for a closer look

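The effect of merbarone on BTG2 differed between the experiments by a test of the difference itself. The 2 h effect minus the 30 min effect was 1.77 (log2 of RPKM + 1, SE 0.22), with a limma adjusted p of 0.00421 over 6558 genes. Over 18 alternatives the adjusted p ran from 0.000164 to 0.0924. By replicate number the 2 h ratios were 3.41 and 5.24, though the labels do not say that these libraries belong together. The BTG2 groups did not overlap at 2 h, as for 61.5% of genes tested there. They overlapped at 30 min, where groups of 3 did not overlap for 2.28% of genes tested. Exposure time, DMSO against no vehicle, and experiment cannot be told apart in this contrast, and the control levels of BTG2 differed 5.11-fold between the experiments. BTG2 averaged under 1 RPKM at 30 min, where log2(RPKM + 1) compresses a change, and passed the filter only through the 2 h libraries.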

How the results depend on the processing

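With 2 libraries per group at 2 h and 3 at 30 min, the number of libraries limits the precision, and the fewest reads of a member were those of BTG2 at 30 min, 78 to 177 per library. At 30 min BTG2 could be fitted only without the filter, by voom and with all 10 libraries in 1 fit. Genes below a mean of 5 RPKM have no value under that filter. With 2 libraries per group the deviations mirror each other, so same-numbered libraries at 2 h gave the same correlation, 0.30, for both numbers. The labels do not say whether libraries of the same number belong together, and this correlation cannot decide it.

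Genes called at 30 min (1 in the report) were 0 with no filter, 2 with a minimum mean of 5 RPKM, with median scaling, quantile normalization or all 10 libraries in 1 fit, 8 with the replicate block, 13 with voom and the replicate block, and 0 to 2 when a library was left out (0 without the second DMSO or second merbarone library, 2 without the third merbarone library). At 2 h (866) they were 53 with no filter, 397 at 5 RPKM, 2129 with the replicate block, 1882 with voom, 3442 with voom and the block, and 2464 and 1311 without the first and second untreated library and 328 and 398 without the first and second merbarone library; a group left with 1 library is taken to vary like the other. In the contrast between experiments (107) they were 361 with no filter, 36 at 5 RPKM, 1255 with the block, 66 with voom, 2098 with voom and the block, and 38 to 86 without one library, with 62 without the second and also without the third 30 min merbarone library, 47 without the second untreated library, and 42 and 38 without the first and second 2 h merbarone library. The causes were not tested.

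BTG1 at 2 h passed the threshold with the replicate block (0.30, limma adjusted p = 0.0262) and with voom and the block (0.30). In these block fits at 2 h limma took the spread from all genes together, so the p-values do not measure the spread of BTG1 itself. Without one library the BTG1 value ran from 0.19 to 0.41. BTG2 at 2 h missed it only with no filter (1.83), and its difference between experiments only with voom without the block (1.95). TOB2 at 2 h missed it with no filter (-0.37), quantile normalization (-0.33) and all 10 libraries in 1 fit (-0.37). TOB2 also missed it without the first (-0.44) or second (-0.30) merbarone library, where limma took the spread from all genes together. Without the first or second untreated library the TOB2 log2 fold change was -0.36 or -0.39. Its difference passed with the block (-0.39) and with voom and the block (-0.47). Values near 0 changed sign without a library: at 30 min BTG1 from -0.15 to 0.18, TOB1 from -0.079 to 0.13 and TOB2 from -0.076 to 0.13, and TOB1 at 2 h from -0.054 to 0.085. The TOB1 difference was 0.014 with median scaling, 0.057 with quantile normalization and -0.12 to 0.095 without a library. The replicate block changed no call of the members other than those of BTG1 at 2 h and the TOB2 difference. Of the lists at 2 h, it added CNOT1, SMAD5, UPF1 and CDK4 to the called genes, and it called 32.2% of all genes tested there.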
